A study of Mus musculus with 8 samples.

Results

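The 10 genes followed here are markers of the mural cells of blood vessels, which sit outside the endothelium. They were taken by symbol from a table of 21970 protein-coding genes, and all 10 were found. Higd1b, Kcnj8, Abcc9, Pdgfrb, Rgs5 and Cspg4 are used as markers of pericytes, and Myh11, Acta2, Tagln and Cnn1 as markers of smooth muscle. They were followed in RNA sequencing of whole heart ventricle of C57BL/6J, a common inbred mouse strain. There were 2 libraries at each of 4 ages, counted in days after birth (P3, P6, P12, P24); the labels name no treatment, mutation or sex. Whether replicates came from separate animals is not stated, and p-values reflect the spread between libraries, which may be technical. Values are the authors' normalized counts, or FPKM (fragments per kilobase of transcript, scaled to library depth) where genes are compared with each other.

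Pericytes wrap the capillaries, the smallest vessels, and smooth muscle cells surround arteries and larger veins. Endothelial cells recruit both with platelet-derived growth factor B, which binds the receptor encoded by Pdgfrb. Smooth muscle cells contract with their own isoforms of myosin and actin, switched on by serum response factor and its partner myocardin through a DNA element called the CArG box. Several markers are not exclusive to these cells: embryonic heart muscle cells and activated fibroblasts also make Acta2 and Tagln, and adult heart muscle cells make Abcc9. In whole tissue, fewer cells of a type and less RNA per cell cannot be told apart.

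The libraries held between 23375967 and 28745112 reads in protein-coding genes. The P6 libraries lay farthest apart, with a median absolute log2 difference between replicates of 0.39, against 0.118 to 0.154 at the other stages. Libraries also differed by gene length: relative to each gene's mean, the shortest 10% of genes lay between -0.26 (P6 replicate 1) and 0.32 (P6 replicate 2) on the log2 scale, and the longest 10% between 0.26 (P6 replicate 1) and -0.30 (P12 replicate 2). The members spread over these lengths, Higd1b being shorter than nearly all genes tested (percentile 1.32) and Cspg4 among the longest (percentile 94). Y-linked reads were present in P6 replicate 1, P12 replicate 1 and P24 replicate 2 and numbered at most 4 in each other library, both P3 libraries among them. All 10 heart muscle markers listed were measured, with summed normalized counts between 1485270 and 2466760 per library.

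The promoters of Acta2, Cnn1, Kcnj8 and Abcc9 are shown because Acta2 is the most abundant member, Cnn1 fell the most, and Kcnj8 and Abcc9 are neighbours on the chromosome with different courses. Of the 10 members, 6 had an entry in the RefSeq promoter table (assembly GRCm38.p6), and the stretch printed runs from -250 to -1 relative to the annotated start, in the gene's direction. Acta2 lies at chr19:34255374-34255623 (minus strand), Cnn1 at chr9:22099003-22099252 (plus strand), Kcnj8 at chr6:142571615-142571864 and Abcc9 at chr6:142702275-142702524 (both minus strand). Capitals mark elements of the CArG type, searched as CC and GG around a core of 6 bases in which at most 1 is G or C; the pattern reads alike on both strands.
Acta2: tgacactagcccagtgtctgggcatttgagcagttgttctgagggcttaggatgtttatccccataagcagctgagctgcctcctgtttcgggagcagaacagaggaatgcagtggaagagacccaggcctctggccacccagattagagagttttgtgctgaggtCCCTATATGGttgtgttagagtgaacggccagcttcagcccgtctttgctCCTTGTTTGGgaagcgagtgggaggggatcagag
Cnn1: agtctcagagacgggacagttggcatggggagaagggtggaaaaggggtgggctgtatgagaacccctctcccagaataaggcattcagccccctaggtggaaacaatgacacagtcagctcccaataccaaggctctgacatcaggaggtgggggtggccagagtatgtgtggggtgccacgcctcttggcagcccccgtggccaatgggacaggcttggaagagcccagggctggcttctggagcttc
Kcnj8: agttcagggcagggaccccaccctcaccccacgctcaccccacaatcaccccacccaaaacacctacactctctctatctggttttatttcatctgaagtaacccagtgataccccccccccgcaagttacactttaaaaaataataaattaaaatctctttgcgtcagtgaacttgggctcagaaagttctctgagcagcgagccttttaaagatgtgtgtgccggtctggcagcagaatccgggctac
Abcc9: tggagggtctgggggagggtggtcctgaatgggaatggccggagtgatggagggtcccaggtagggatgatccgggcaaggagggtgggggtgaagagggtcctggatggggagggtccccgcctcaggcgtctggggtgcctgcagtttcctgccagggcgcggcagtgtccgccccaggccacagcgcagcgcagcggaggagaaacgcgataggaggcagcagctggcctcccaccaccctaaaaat
Acta2 holds 2 such elements, CCCTATATGG at -84 to -75 and CCTTGTTTGG at -34 to -25, each with 1 G or C in the core. None of the 6 promoters holds the strict form, which 1.47% of all 32851 promoter windows of this length hold, against 8.59% for the form with 1 G or C. Rgs5 and Cspg4, the other 2 members with an entry, hold neither form in this window. TATAAA and GTGGGAA, the core of the element bound by the Notch effector RBPJ, were not found on either strand of the 6 windows. Of all windows, 12.37% hold the first and 5.42% the second.

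Between P3 and P24 the members did not move as a block. Kcnj8 and Rgs5, both pericyte markers, rose, and Cspg4, Acta2, Tagln and Cnn1 fell, so 6 of 10 passed the test (limma, BH-adjusted p below 0.05) where 36.9% of the 14055 genes tested did. By direction, 18.7% of all genes rose and 18.2% fell. The pericyte markers had a median log2 difference of 0.44 and the smooth muscle markers one of -1.05, beside -0.02 over all genes. All 10 members had P24 libraries that lay wholly above or wholly below the P3 libraries, which was also true of 78.5% of all genes. With scaling by library size alone the median gene stood at -0.36 on the log2 scale, and all 6 members were still called in the same direction.

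**Figure D1:**
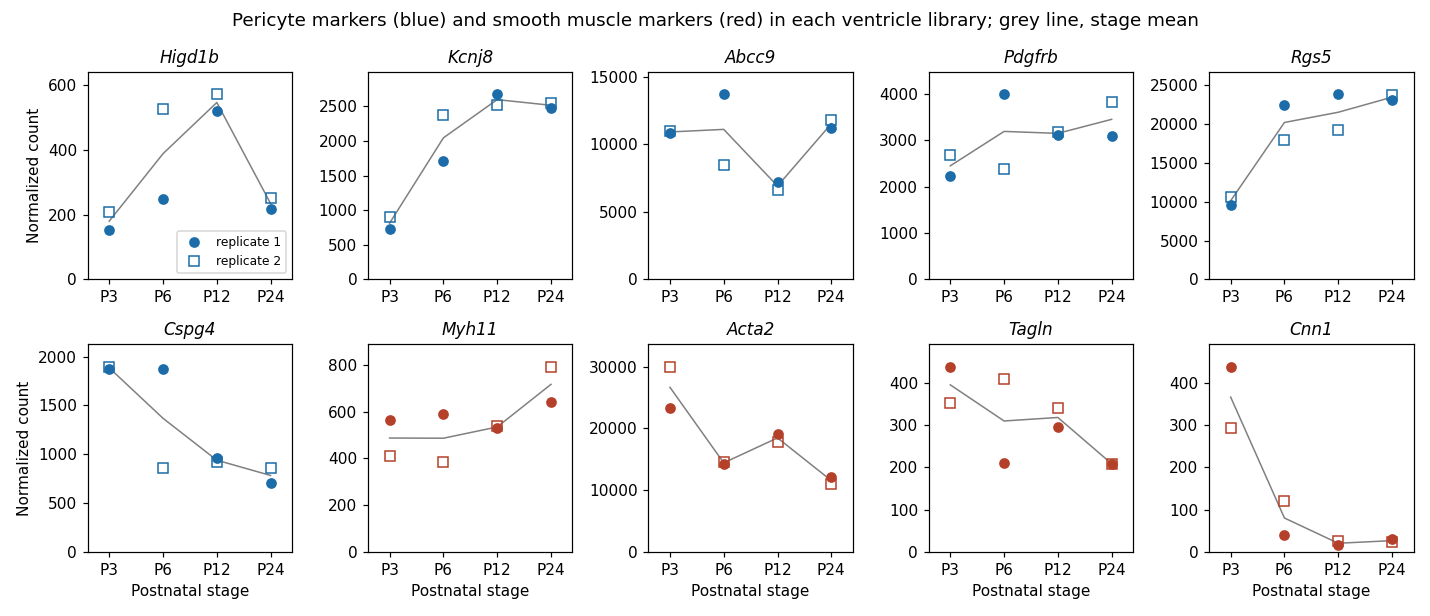
Normalized count (vertical axis, from 0) of each marker at the 4 stages; each point is 1 library, filled for replicate 1 and open for replicate 2, and the grey line joins stage means. Kcnj8 and Rgs5 are lowest at P3, Cnn1 and Acta2 highest at P3, and the P6 points of Abcc9, Pdgfrb, Cspg4, Higd1b and Tagln lie far apart. On the log2 scale the P6 gap is widest for Cnn1 (-1.56, replicate 1 over replicate 2).

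Kcnj8 (ENSMUSG00000030247) encodes Kir6.1, the pore subunit of the ATP-sensitive potassium channel of vascular mural cells. Kcnj8 had 726 and 901 normalized counts in the P3 libraries, 1714 and 2378 in the P6 libraries, 2679 and 2519 in the P12 libraries and 2483 and 2551 in the P24 libraries. Every library from P6 on lay above both P3 libraries. Kcnj8 averaged 2046 ± 470 (SD, n = 2) at P6, against 813 ± 124 (SD, n = 2) at P3, and rose by a log2 difference of 1.32 ± 0.18 (SE) (limma, BH-adjusted p = 0.0241). For this step 0.84% of all genes passed. The 2 later steps, at 0.36 and -0.05, did not pass. From P3 to P24 the difference was 1.64 ± 0.18 (SE) (limma, BH-adjusted p = 0.00018), a call held in all 8 fits that left out 1 library. The P3 to P6 call held in only 2 of those 8, the 2 without a P6 library, and was lost without the variance trend and in a fit of the 4 libraries alone.

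Rgs5 (ENSMUSG00000026678) encodes a regulator of G protein signalling that is among the most abundant transcripts of pericytes. Rgs5 had 9586 and 10654 normalized counts in the P3 libraries, 22487 and 17878 in the P6 libraries, 23831 and 19160 in the P12 libraries and 23101 and 23768 in the P24 libraries. As with Kcnj8, the P3 libraries lay below all others; the P12 libraries of Rgs5 overlapped those of P6 and P24, and its P24 libraries lay above those of P6. Rgs5 averaged 20183 ± 3259 (SD, n = 2) at P6, against 10120 ± 755 (SD, n = 2) at P3, and rose by a log2 difference of 0.99 ± 0.18 (SE) (limma, BH-adjusted p = 0.049). That call stood just inside the threshold: it was lost in 8 of 14 other settings, among them edgeR on recovered reads (adjusted p = 0.053) and library-size scaling (0.0857). Over the 8 fits without 1 library the limma adjusted p ran from 0.0016 to 0.347. The P24 level exceeded the P3 level by 1.21 ± 0.18 (SE) (limma, BH-adjusted p = 0.000906), which held in all 8 such fits.

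Higd1b (ENSMUSG00000020928) encodes a small protein of the hypoxia-induced domain family whose transcript is largely restricted to pericytes, and its course had a peak. Higd1b had 153 and 206 normalized counts in the P3 libraries, 249 and 526 in the P6 libraries, 519 and 571 in the P12 libraries and 217 and 251 in the P24 libraries. Both P12 libraries lay above both P3 and both P24 libraries, and the P6 pair spanned most of the range of all libraries. P12 exceeded P3 by a log2 difference of 1.61 ± 0.32 (SE) (limma, BH-adjusted p = 0.00876), in a comparison that 24.4% of all genes passed; the call was lost without P3 replicate 1 or without either P12 library. The P24 level then fell below the P12 level by 1.22 ± 0.32 (SE) on the log2 scale (limma, BH-adjusted p = 0.0326), where 16.3% of all genes passed. Between P24 and P3 it did not pass (log2 difference 0.39, 95% interval -0.33 to 1.11; limma, BH-adjusted p = 0.366), and under library-size scaling the difference was 0.044. Higd1b is shorter than nearly all genes tested (percentile 1.32), and libraries differed by gene length. With the length trend removed its P3 to P6 difference was 0.75, against 1.02, and its P3 to P24 difference 0.22, against 0.39. The P3 to P12 and P12 to P24 calls held in that setting. The P12 to P24 call was lost after quantile normalization, without the variance trend and in 6 of the 8 fits without 1 library.

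Abcc9 (ENSMUSG00000030249) encodes SUR2, the sulfonylurea receptor that pairs with Kir6.1 in mural cells and with Kir6.2 in heart muscle. Abcc9 had 10839 and 10978 normalized counts in the P3 libraries, 13709 and 8488 in the P6 libraries, 7204 and 6615 in the P12 libraries and 11235 and 11798 in the P24 libraries. The P12 libraries were the lowest of all 8, and the P24 libraries lay just above those of P3. P24 exceeded P12 by a log2 difference of 0.74 ± 0.21 (SE) (limma, BH-adjusted p = 0.0462). This call was lost under library-size, quantile and TMM scaling, with no filter, without the variance trend and with edgeR, and in 6 of the 8 fits without 1 library. From P3 to P24 the difference was 0.08 with a 95% interval of -0.40 to 0.56, and it was -0.27 when scaled by library size alone.

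The subunits of the channel can be set side by side per transcript length. Kcnj8 lay at 10.2 and 12.6 FPKM in the P3 libraries, 24 and 33.3 in the P6 libraries, 37.5 and 35.3 in the P12 libraries and 34.8 and 35.7 in the P24 libraries. Kcnj11, which encodes Kir6.2, the pore subunit of heart muscle, lay at 23.2 and 24.9 FPKM in the P3 libraries, 30.9 and 25.6 in the P6 libraries, 27.9 and 24.3 in the P12 libraries and 46.8 and 42.9 in the P24 libraries. Kcnj8 was thus below Kcnj11 at P3 and P24 and above it at P12. The FPKM ratio of Kcnj8 to Kcnj11 was 0.438 and 0.507 in the P3 pair, 0.775 and 1.3 in the P6 pair, 1.35 and 1.45 in the P12 pair and 0.743 and 0.833 in the P24 pair. Kcnj11 rose from P3 to P24 by a log2 difference of 0.90 ± 0.15 (SE) (limma, BH-adjusted p = 0.00179). Abcc9 lay between 28.2 and 58.4 FPKM over all libraries and Abcc8, which encodes the receptor SUR1, between 5.49 and 10.6 FPKM. Abcc8 did not pass from P3 to P24 (log2 difference -0.19; limma, BH-adjusted p = 0.524). Kcnj8 and Abcc9 are direct neighbours among the protein-coding genes of chromosome 6. Their lengths lie at percentiles 20.4 and 83.8, so their ratio sets a shorter gene against a longer one, and libraries differed by gene length. On the log2 scale the shortest 10% of genes stood at -0.26 and 0.32 in the P6 pair. They stood at -0.18 and -0.15 in the P3 pair, 0.16 and 0.28 in the P12 pair and -0.06 and -0.07 in the P24 pair. With the length trend removed, the P3 to P24 log2 difference was 1.58 for Kcnj8 and 0.14 for Abcc9, against 1.64 and 0.08. From P3 to P6 these were 1.24 and 0.06, against 1.32 and -0.02. The ratio itself was not recomputed in that setting, and the part of the length shift in it was not tested. The FPKM ratio of Kcnj8 to Abcc9 was 0.22 and 0.27 in the P3 pair, 0.411 and 0.921 in the P6 pair, 1.22 and 1.25 in the P12 pair and 0.726 and 0.71 in the P24 pair.

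**Figure D2:**
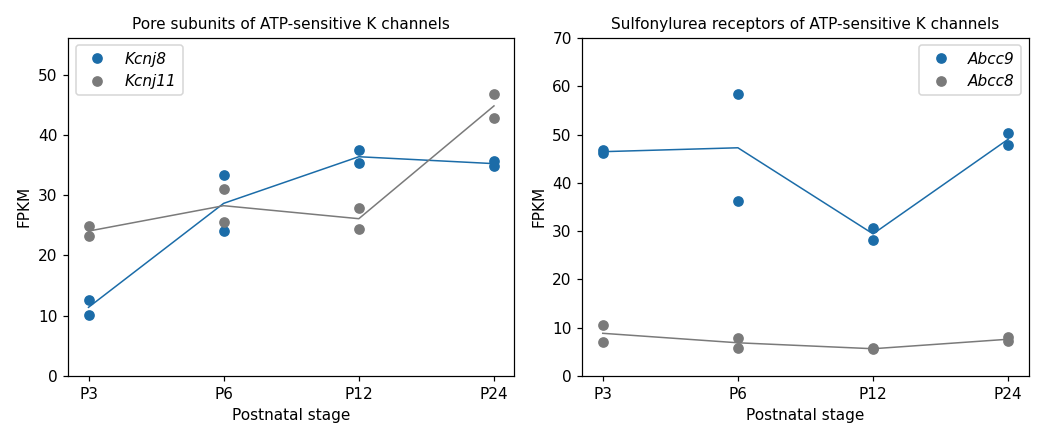
FPKM (vertical axis, from 0) of the pore subunits Kcnj8 and Kcnj11 (left) and of the sulfonylurea receptors Abcc9 and Abcc8 (right) by stage; points are libraries and lines join stage means. Kcnj8 passes above Kcnj11 at P12 and lies below it at P24, while Abcc9 dips at P12.

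Pdgfrb (ENSMUSG00000024620) encodes the receptor beta for platelet-derived growth factor, through which pericytes are recruited to new vessels. Pdgfrb had 2223 and 2679 normalized counts in the P3 libraries, 3998 and 2388 in the P6 libraries, 3123 and 3179 in the P12 libraries and 3088 and 3820 in the P24 libraries. The highest value and the second lowest were the 2 P6 libraries, so P6 overlapped all other stages. Pdgfrb averaged 3454 ± 518 (SD, n = 2) at P24, against 2451 ± 323 (SD, n = 2) at P3, a log2 difference of 0.49 with a 95% interval of -0.04 to 1.03 that did not pass (limma, BH-adjusted p = 0.134). It passed when either or both P6 libraries were left out (BH-adjusted p = 0.00431 to 0.00458) and in the fit of the 4 libraries alone (0.0102), at the same difference. Under library-size scaling the difference was 0.14 (limma, BH-adjusted p = 0.673) and with a term for Y-linked reads 0.32 (0.254).

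Cspg4 (ENSMUSG00000032911) encodes NG2, a proteoglycan of pericytes and of oligodendrocyte precursors, and it was the pericyte marker that fell. Cspg4 had 1871 and 1898 normalized counts in the P3 libraries, 1878 and 859 in the P6 libraries, 961 and 918 in the P12 libraries and 702 and 865 in the P24 libraries. P6 replicate 1 lay with the P3 libraries and P6 replicate 2 with the later ones. Cspg4 averaged 783 ± 115 (SD, n = 2) at P24, against 1885 ± 19.0 (SD, n = 2) at P3, a log2 difference of -1.27 ± 0.30 (SE) (limma, BH-adjusted p = 0.0105). The call was lost without either P3 library or without P24 replicate 1 (log2 difference -1.12 to -1.42 over the 8 fits). P12 was also below P3, by 1.00 on the log2 scale (limma, BH-adjusted p = 0.043), a call held in 2 of the 8 fits and lost under TMM scaling, with no filter and without the variance trend.

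Among the smooth muscle markers, Acta2 (ENSMUSG00000035783), which encodes smooth muscle alpha-actin, was by far the most abundant. Acta2 had 23294 and 30006 normalized counts in the P3 libraries, 14269 and 14565 in the P6 libraries, 19062 and 17864 in the P12 libraries and 12075 and 11021 in the P24 libraries. The 4 stages did not overlap, in the order P3, P12, P6 and P24 from high to low. The share of all genes whose 4 stages separate likewise was not counted. Between P24 and P3 alone, 78.5% of all genes did not overlap. Acta2 averaged 11548 ± 745 (SD, n = 2) at P24, against 26650 ± 4746 (SD, n = 2) at P3, and fell by 1.20 ± 0.17 (SE) on the log2 scale (limma, BH-adjusted p = 0.000647), held in all 8 fits without 1 library. It also fell from P12 to P24, by 0.68 (limma, BH-adjusted p = 0.0278), a call lost in each of the 4 fits that left out a P12 or P24 library. The P6 level stood at a log2 difference of -0.87 from P3 (limma, BH-adjusted p = 0.0588) and did not pass. P12 stood at 0.36 from P6 (limma, BH-adjusted p = 0.287) and did not pass either. The fall from P3 to P6 passed under library-size scaling (limma, BH-adjusted p = 0.0473), quantile normalization (0.0291), with the length trend removed (0.0221), with DESeq2 (7.9e-05) and without either P6 library (0.00172 and 0.00716).

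Cnn1 (ENSMUSG00000001349), which encodes calponin 1, an actin-binding protein of smooth muscle, had the largest change of the 10. Cnn1 had 438 and 294 normalized counts in the P3 libraries, 40.5 and 120 in the P6 libraries, 15.8 and 25.0 in the P12 libraries and 29.8 and 23.4 in the P24 libraries. These last 4 values rest on 15 to 26 reads per library, above the 3 reads taken as the floor. Cnn1 averaged 26.6 ± 4.55 (SD, n = 2) at P24, against 366 ± 102 (SD, n = 2) at P3, a log2 difference of -3.71 ± 0.47 (SE) (limma, BH-adjusted p = 0.000388). P12 was lower than P3 by 4.1 ± 0.47 (SE) on the log2 scale (limma, BH-adjusted p = 0.000923), and both calls held in all 8 fits. The log2 difference of P6 from P3 was -2.35 (limma, BH-adjusted p = 0.0678) and that of P12 from P6 was -1.76 (limma, BH-adjusted p = 0.0977), and both missed the threshold. The P6 to P3 difference passed with the length trend removed (limma, BH-adjusted p = 0.0304), with DESeq2 (0.000158) and without either P6 library (0.00703 and 0.00178).

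Tagln (ENSMUSG00000032085) encodes transgelin, or SM22 alpha, an actin cross-linking protein. Tagln had 438 and 352 normalized counts in the P3 libraries, 210 and 409 in the P6 libraries, 296 and 339 in the P12 libraries and 209 and 208 in the P24 libraries. The fall from P3 to P24, a log2 difference of -0.91 ± 0.28 (SE) (limma, BH-adjusted p = 0.0331), was lost in 6 of the 8 fits without 1 library, after quantile normalization, without the variance trend and with a term for Y-linked reads. Tagln carries a further limit: in the GENCODE M21 annotation, which is of another assembly than the authors' files, 62.4% of its exonic bases overlap an antisense gene and 5.43% overlap Pcsk7. How the authors' counting treated strand is not given in the sources used here. Reads from the overlapping genes then cannot be told apart, and the level of Tagln is uncertain.

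Myh11 (ENSMUSG00000018830) encodes the smooth muscle myosin heavy chain, the most specific marker of mature smooth muscle. Myh11 had 563 and 412 normalized counts in the P3 libraries, 589 and 384 in the P6 libraries, 530 and 539 in the P12 libraries and 641 and 793 in the P24 libraries. The P24 libraries were the highest of all. Myh11 averaged 717 ± 108 (SD, n = 2) at P24, against 487 ± 107 (SD, n = 2) at P3, a log2 difference of 0.57 with a 95% interval of 0.03 to 1.10 that did not pass after adjustment (limma, BH-adjusted p = 0.0916). It passed without either or both P6 libraries (BH-adjusted p = 0.00978 to 0.0102), in the fit of the 4 libraries alone (0.0213) and with the length trend removed (0.027), while under library-size scaling the difference was 0.22 (0.526) and without P3 replicate 2 it was 0.34 (0.424). Its log2 difference thus had the opposite sign to those of Acta2, Tagln and Cnn1.

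**Figure D3:**
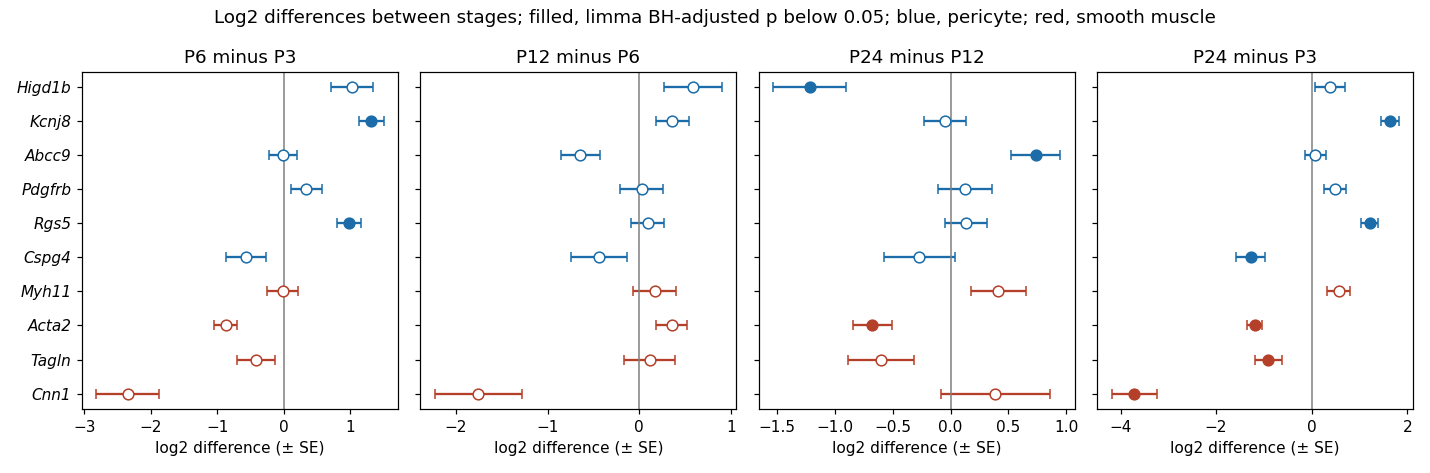
Log2 difference (later minus earlier stage, with SE) of each marker for the 3 successive steps and for P24 minus P3; filled points passed limma with BH adjustment. Kcnj8 and Rgs5 pass at the first step, no member at the second, Higd1b, Abcc9 and Acta2 at the third, and 6 of 10 over the whole span.

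By step, 2 of 10 members passed from P3 to P6, where 0.84% of all genes did, and 3 of 10 from P12 to P24, where 16.3% did. From P6 to P12 limma called 0 of 10, where 2.26% of all genes passed. In that step Cnn1 and Abcc9 had unadjusted limma p below 0.05 (0.00499 and 0.0145), beside 2626 of all 14055 genes tested. For the same step edgeR called 0 members and DESeq2 called 1. Between P24 and P6, where 26.7% of all genes passed, limma also called 0 of 10. In that comparison 3 members (Cspg4, Myh11 and Cnn1) had an unadjusted limma p below 0.05, beside 5349 of all 14055 genes tested. The joint F test over the stages called Higd1b, Kcnj8, Rgs5, Cspg4, Acta2 and Cnn1, 6 of 10, where 34.9% of all genes passed.

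Per transcript length, the order of the markers was led by Acta2 at every stage, followed by Rgs5. Acta2 averaged 433 ± 77.1, 234 ± 3.4, 300 ± 13.8 and 188 ± 12.1 FPKM (SD, n = 2 each) at P3, P6, P12 and P24. Rgs5 averaged 79.4 ± 5.93, 158 ± 25.6, 169 ± 25.9 and 184 ± 3.70 FPKM (SD, n = 2 each). At P24 their libraries overlapped, Acta2 at 196 and 179 FPKM and Rgs5 at 181 and 186. Abcc9 came next at P3, P6 and P24, and Kcnj8 at P12. Myh11 was among the lowest, between 1.80 and 3.72 FPKM in all libraries, so the FPKM ratio of Acta2 to Myh11 was 143 and 252 in the P3 pair, 83.9 and 131 in the P6 pair, 124 and 115 in the P12 pair and 65.2 and 48.1 in the P24 pair. Cnn1 was the lowest of the 10 from P6 on, at 0.347 ± 0.0594 FPKM (SD, n = 2) at P24.

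**Figure D4:**
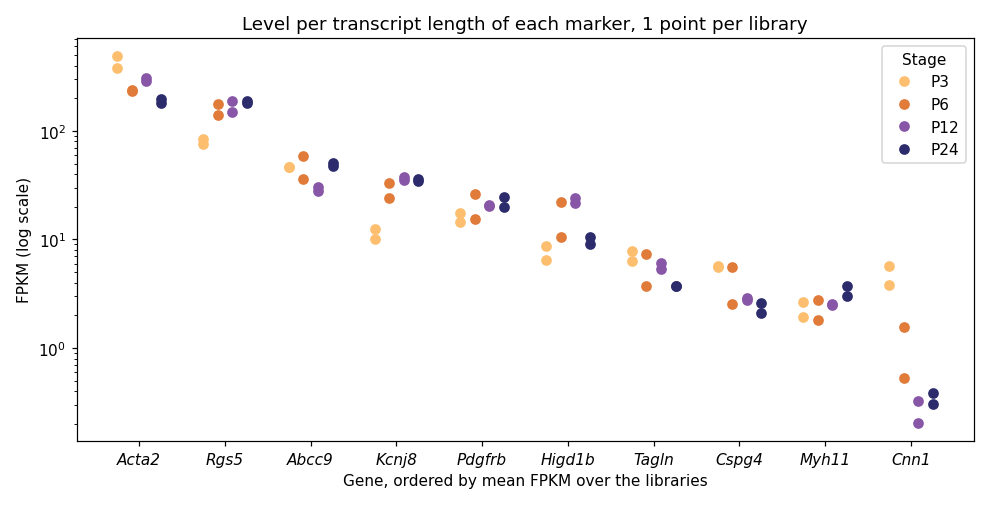
FPKM of each marker on a log axis, 1 point per library, coloured by stage and ordered by the mean over all libraries. Acta2 and Rgs5 lead; at P24 their points lie together, between 179 and 196 FPKM, while Cnn1 falls below all others after P3.

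The 4 smooth muscle markers belong to families whose other members are made in other cells. Between P24 and P3 the family shares of Acta2, Myh11 and Cnn1 did not overlap, while that of Tagln did. How often such shares separate was not computed. In normalized counts, 78.5% of all genes did not overlap between these stages. Acta2 made up 3.03% and 2.58% of the summed FPKM of 6 actin genes at P24, against 5.85% and 5.82% at P3. Actc1, the cardiac actin, held most of that sum and did not pass (log2 difference -0.06, P24 minus P3; limma, BH-adjusted p = 0.876). Of 50-base windows in the Acta2 transcripts, 0.326% also occurred in a transcript of another gene. The genes sharing most of them were Actg-ps1, Actg1 and Gm12715. Only these top genes were recorded, so whether Actc1 shares any of that 0.326% is not known. Myh11 made up 10.3% and 12.1% of the FPKM of Myh9, Myh10 and Myh11 at P24, against 4.49% and 3.68% at P3. Myh10, a non-muscle myosin heavy chain, fell by 1.84 on the log2 scale (limma, BH-adjusted p = 0.000144). Cnn1 made up 0.75% and 0.687% of calponin FPKM at P24, against 5.68% and 3.75% at P3, and Cnn3, the acidic calponin, fell by 1.34 (limma, BH-adjusted p = 0.000218). Tagln made up 7.45% and 8.22% of transgelin FPKM at P24, against 8.89% and 7.41% at P3. Relatives of the pericyte markers were listed as well, and 18 relatives of both marker groups were tested. Of these, 2 rose and 5 fell, with a median of -0.33, where 18.7% of all genes rose and 18.2% fell. Both rises, Rgs4 and Kcnj11, were relatives of pericyte markers. The numbers were 2 and 8 under library-size scaling and 3 and 9 without both P6 libraries. Higd1c was at 0 in every library.

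Other pericyte genes also moved in both directions. Of 19 further pericyte markers, 8 rose and 4 fell from P3 to P24, where 18.7% of all genes rose and 18.2% fell. Their median log2 difference was 0.11, against -0.02 over all genes, while library-size scaling gave 5 rises and 7 falls. The largest rise was that of Vtn, vitronectin, at 1180 ± 114 (SD, n = 2) at P24, against 220 ± 30.4 (SD, n = 2) at P3 (log2 difference 2.42 ± 0.17 (SE); limma, BH-adjusted p = 1.27e-05). P2ry14, a receptor for UDP-glucose, rose by 1.77 and Rgs4, a relative of Rgs5, by 1.48. Tbx18, a transcription factor of mural cells and the epicardium, fell by 1.39, Mcam, an adhesion molecule also made by endothelium, by 1.13, and Pth1r, the parathyroid hormone receptor, by 0.89. These 6 calls held in all 8 fits without 1 library.

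Of 19 further smooth muscle genes, 2 rose and 7 fell from P3 to P24, where 18.7% of all genes rose and 18.2% fell. Their median log2 difference was -0.47. Without either or both P6 libraries 4 rose, without P3 replicate 2 or P24 replicate 1 only 1 did, and without P24 replicate 2 none did. Myl9, the regulatory light chain of smooth and non-muscle myosin, averaged 1317 ± 87.4 (SD, n = 2) at P24, against 11827 ± 2007 (SD, n = 2) at P3 (log2 difference -3.16 ± 0.19 (SE); limma, BH-adjusted p = 4.42e-06). Actg2, the enteric smooth muscle actin, fell by 3.14 to a low level of 9.47 ± 5.73 (SD, n = 2) at P24, against 85.1 ± 18.4 (SD, n = 2) at P3. That P24 mean lies below the filter value of 10. Tpm2, beta-tropomyosin, fell by 1.76. The 2 that rose were Synpo2, an actin-binding protein also made in heart muscle, by 1.03, and Sncg, gamma-synuclein, by 2.34 at a low level of 71.0 ± 20.4 (SD, n = 2) at P24, against 13.9 ± 7.25 (SD, n = 2) at P3. Neither rise held in all 8 fits without 1 library.

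**Figure D5:**
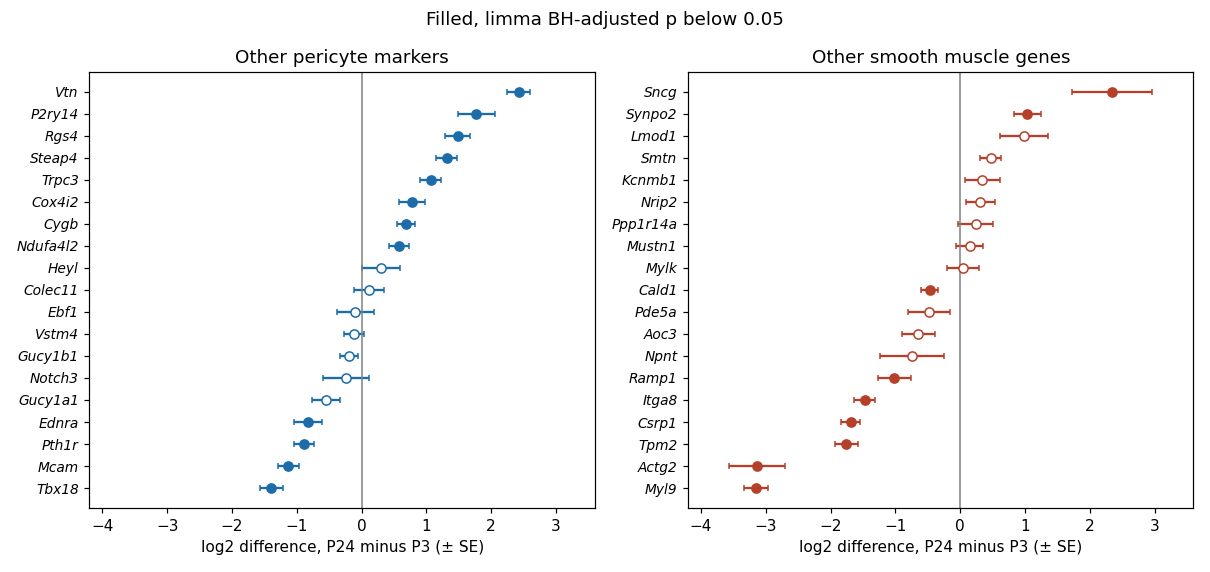
Log2 difference between P24 and P3 (with SE) for 19 further pericyte markers (left) and 19 further smooth muscle genes (right), ordered by value; filled points passed limma with BH adjustment. Vtn leads the rises on the left, and Myl9 and Actg2 the falls on the right.

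Of the platelet-derived growth factor genes, Pdgfb, the ligand that endothelium uses to recruit pericytes, averaged 1542 ± 186 (SD, n = 2) at P24, against 970 ± 72.8 (SD, n = 2) at P3. It rose by a log2 difference of 0.66 (limma, BH-adjusted p = 0.0192). Pdgfc rose by 1.35 and Pdgfd by 0.58, while Pdgfa fell by 0.75 (limma, BH-adjusted p = 0.00286). Pdgfra, the receptor of fibroblasts, stood at 0.26 and did not pass (limma, BH-adjusted p = 0.417). The fall of Pdgfa held in all 8 fits without 1 library, and the 3 rises in 4 or 5 of them; under library-size scaling none of the 3 was called. Of 15 other genes that link endothelium and mural cells, 3 rose and 2 fell, while library-size scaling gave 1 and 5; over the fits without 1 library 1 to 3 rose and 0 to 4 fell. Among all genes tested, 18.7% rose and 18.2% fell from P3 to P24. Angpt1, angiopoietin 1, which mural cells send to the endothelial receptor Tek, averaged 1616 ± 367 (SD, n = 2) at P24, against 534 ± 64.5 (SD, n = 2) at P3, and rose by 1.58 (limma, BH-adjusted p = 0.00174). That call held in all 8 fits without 1 library, while the 4 that follow held in 2 to 6 of them. Hbegf, a ligand of the epidermal growth factor receptor, rose by 0.54 and Acvrl1, an endothelial receptor of bone morphogenetic proteins, by 0.47. Edn1, endothelin 1, fell by 0.77 and S1pr1, a sphingosine phosphate receptor, by 0.47.

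Of 9 regulators around serum response factor, 2 rose and 2 fell, against 1 and 2 under library-size scaling; without either or both P6 libraries 4 fell. Klf4, a repressor of smooth muscle genes, rose by a log2 difference of 1.31 (limma, BH-adjusted p = 0.00297) and Fhl2, a cofactor abundant in heart muscle, by 0.84, Fhl2 being called in only 2 of the 8 fits without 1 library. Csrp2, which is made in smooth muscle, fell by 2.16 (limma, BH-adjusted p = 0.000169) and Fhl1 by 0.80. Over this span 18.7% of all genes rose and 18.2% fell. Srf itself stood at 0.23 (limma, BH-adjusted p = 0.279) and did not pass. Myocd, which encodes myocardin, stood at -0.71 (limma, BH-adjusted p = 0.166) and did not pass either. Myocd averaged 1594 ± 386, 1141 ± 713, 509 ± 21.6 and 960 ± 66.5 (SD, n = 2 each) at P3, P6, P12 and P24.

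Markers of other cell types moved beside these genes, and their part in the results was not tested. For the counts that follow, 18.7% of all genes rose and 18.2% fell from P3 to P24. Of 13 endothelial markers 2 rose and 0 fell from P3 to P24, with a median log2 difference of 0.00 and summed normalized counts of 46920 and 51504 at P24, against 41978 and 44286 at P3. Of 11 fibroblast markers 3 rose and 4 fell, with sums of 124153 and 120443 at P24, against 199796 and 123467 at P3. Activated fibroblast and valve markers, of which 1 of 7 rose and 3 fell, had a median log2 difference of -0.39 (range -4.56 to 2.12). They summed to 3386 and 3587 at P24, against 43977 and 35722 at P3, and abundant genes weigh most in such sums. Of 10 heart muscle markers 4 rose and 0 fell, with sums of 2231350 and 2466760 at P24, against 1566880 and 1740580 at P3. Atrial markers, of which 0 of 6 rose and 1 fell, summed to 3317 and 3211 at P24, against 11355 and 4399 at P3, so the P3 replicates differed in them. Epicardial markers, of which 0 of 7 rose and 1 fell, had a median log2 difference of -0.43 (range -2.09 to 0.20). They summed to 1314 and 1281 at P24, against 3220 and 2434 at P3. Macrophage markers, of which 7 of 8 rose, summed to 9924 and 10486 at P24, against 3933 and 3096 at P3. All 7 cell division markers fell, to sums of 833 and 791 at P24, against 19331 and 14634 at P3. Of 5 red cell markers none was called, and of 5 nerve and glia markers tested 1 rose. No gene of these lists was at 0 in every library.

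Over the 8 libraries, the genes most like the pericyte markers' mean course were Fam13c (Pearson r = 0.983), Ccdc88c (0.972), Ablim3 (0.969), Prkch (0.965) and Btnl9 (0.957), out of 11694 genes with a stage mean of at least 100. Those most like the smooth muscle markers' mean course were Ninl (0.963), Rpl14 (0.958), Idi1 (0.957), Ndc1 (0.954) and Tpsb2 (0.951). These are correlations over 4 stages of 2 libraries and describe a shared course only. Among the members, also over the 8 libraries, Pearson r was 0.926 for Kcnj8 and Rgs5, -0.945 for Rgs5 and Cnn1 and -0.401 for Kcnj8 and its partner Abcc9. Pairs of pericyte markers ran from -0.858 (Kcnj8 and Cspg4) to 0.926 (Kcnj8 and Rgs5). Pairs of smooth muscle markers ran from -0.728 (Myh11 and Tagln) to 0.698 (Acta2 and Tagln). Each mean course thus averages some markers that correlated negatively with each other.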

How the data were processed

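The authors deposited 1 table for all 8 libraries of poly(A)-selected RNA. The authors' table gives, per the file headers, a normalized count (a signal scaled by library) and an FPKM value for each gene. Both are proportional within a gene, so the deposited FPKM served only to compare genes. Per the submitters' processing notes, the build was GRCm39 and the tools included HTSeq 0.11.2, STAR 2.7.3a, DESeq2 1.32.0 and Trim Galore 0.6.4, with no roles stated. Normalized counts were whole multiples of 1 read (tolerance 0.001) for 100% of values, so reads were recovered; depths lay between 23375967 and 28745112, and the floor of 3 reads for an undetected gene was at most 1.28e-05% of a library (counting error only).

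Because the table holds normalized values, limma 3.58.1 (R 4.3.3) was run on log2(normalized count + 1), on all 8 libraries with stage as a factor, a variance trend and no replicate term. Genes needed a value of at least 10 in 2 libraries, which left 14055, all 10 members among them; BH adjustment covered these genes, with a threshold of 0.05. Fold changes on this scale are understated for low genes. edgeR 4.0.16 and DESeq2 1.42.0 on recovered reads were alternatives, beside scaling, pseudocount, filter, length, Y-linked reads and libraries left out. On simulated data for P24 against P3 (13842 genes), limma recovered 50 of 50 genes at each of log2 changes -2 and 2, 24 of 50 at -1 and 30 of 50 at 1, and called 12 of 13642 unchanged genes. The simulation gave each gene the same spread setting in all libraries, no length shift and a change in only 200 genes. In the data the P6 libraries lay farther apart, libraries differed by gene length and 36.9% of genes passed. The simulated rates need not hold there. The members and lists were chosen with earlier results of these data known. The genes named from a list of related genes were, by rule, its 3 largest called rises and falls from P3 to P24, and every member of lists of 5 or fewer; Srf, Myocd, Actc1 and Higd1c were named after their values were seen. Genes alike in course were the 5 with the highest Pearson r to the mean z-score of the markers.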

Additional observations from a re-analysis of the deposited data

How the results depend on the processing

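Kcnj8, Rgs5, Acta2 and Cnn1 kept their P3 to P24 calls in all 8 fits without 1 library and under all other alternatives tried. Counts of called members were 6 of 10 from P3 to P24 (4 to 8 over the fits without 1 library), 6 in the joint test (4 to 10), 2 from P3 to P6 (0 to 7), 0 from P6 to P12 (0 to 5) and 3 from P12 to P24 (0 to 4). All 5 high ends came from leaving out a P6 library. From P3 to P6 the count was 0 without the variance trend and with the 4 libraries alone, 1 with no filter, the stricter filter, the Y-linked term or edgeR, 4 with the length trend removed and 5 with DESeq2. From P6 to P12 it was 1 with the Y-linked term, the length trend removed or DESeq2. From P12 to P24 it was 1 after quantile normalization or without the variance trend and 5 with the 4 libraries alone. Over all genes the counts ran from 6 to 4443 (P3 to P6, against 118), 0 to 5728 (P6 to P12, 317), 518 to 6031 (P12 to P24, 2297), 3063 to 7822 (P3 to P24, 5187) and 2385 to 9986 (joint test, 4909) over the fits without 1 library. From P3 to P6, 62 genes were called under library-size scaling, 70 with no filter, 52 without the trend, 0 with the 4 libraries alone, 302 with the length trend removed and 515 with DESeq2 (60.2% rising, against 78%). From P6 to P12 these were 189 with no filter, 0 with the 4 libraries alone, 480 with the Y-linked term, 573 with the length trend removed and 874 with DESeq2. From P12 to P24, 6022 passed without both P6 libraries and 6631 with the 4 libraries alone, and from P3 to P24, 7819 without both P6 libraries. edgeR called 100, 336, 2190 and 5172 genes in the 3 steps and the whole span. Under library-size scaling 23.2% of calls from P3 to P24 were rises, against 50.6%, and 19.1% from P12 to P24, against 50.2%. The cause of these shifts was not tested.

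Correlations of the deviations of same-numbered replicates were 0.14 to 0.32 among P3, P6 and P12 and -0.14 to 0.03 between these and P24, so they were not above 0.1 for every pair of stages and the numbers were not taken to pair the samples. With a replicate block the P6 to P12 count was 512, and no count of called members differed by more than 1.5 times.

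Signs turned only for differences that had not passed. Under library-size scaling these were Abcc9 (-0.27) and Pdgfra (-0.091) from P3 to P24, Pdgfrb from P6 to P12 (-0.025) and P12 to P24 (-0.080) and Rgs5 from P12 to P24 (-0.071). After quantile normalization they were Abcc9 from P3 to P24 (-0.11), Pdgfrb from P12 to P24 (-0.0099), Rgs5 from P6 to P12 (-0.069) and Myh11 from P3 to P6 (0.012). With the length trend removed they were Kcnj8 from P12 to P24 (0.069), Abcc9 (0.061) and Myh11 (0.052) from P3 to P6 and Tagln from P6 to P12 (-0.020). edgeR and DESeq2 gave 0.031 and 0.029 for Abcc9 and 0.0059 and 0.0041 for Myh11 from P3 to P6, and the Y-linked term gave -0.070 for Abcc9 from P3 to P24. Without 1 library, P3 to P6 ranged from -0.36 to 0.33 for Abcc9, -0.031 to 0.71 for Pdgfrb, -0.32 to 0.29 for Myh11 and -0.90 to 0.059 for Tagln. P6 to P12 ranged from -0.34 to 0.40 for Pdgfrb, -0.074 to 0.26 for Rgs5, -1.0 to 0.13 for Cspg4, -0.14 to 0.48 for Myh11 and -0.37 to 0.59 for Tagln. P12 to P24 ranged from -0.029 to 0.28 for Pdgfrb and -0.024 to 0.29 for Rgs5, and P3 to P24 from -0.058 to 0.57 for Pdgfra and -0.48 to 0.098 for Abcc8.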
